A study of Mus musculus with 6 samples.

Results

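The 32 genes described here encode subunits of the receptors through which neurons of the retina and brain sense glutamate, GABA and glycine. They were taken by name from a fixed list, with no threshold on a measured value, and the list does not hold every gene of these families: 3 AMPA receptor genes, 6 NMDA, 5 kainate, 6 metabotropic glutamate, 7 GABA-A, 2 GABA-B and 3 glycine receptor genes. All 32 were found by symbol among the 21887 protein-coding genes of the RefSeq table for GRCm38.p6. Accessible regions were built by merging the peaks of all libraries, and 145 of the 46780 regions lay inside a member gene or had it as the nearest gene within 100 kb. The data are ATAC-seq peak lists, which mark where the Tn5 transposase cut the chromatin more often than around it. The retinas came from mouse embryos of strain C57BL/6 at E14.5, from 3 wild-type animals (Atoh7 +/+) and 3 animals homozygous for a mutant shadow enhancer of Atoh7 (called SE/SE, as in the labels). Atoh7 encodes a transcription factor needed to make retinal ganglion cells, and a shadow enhancer is an extra element whose activity overlaps that of the main enhancer. Each library holds both retinas of 1 animal, so a peak list is a mixture of all retinal cell types at that age.

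The lists differed in length before any gene was looked at. Wild-type lists ran from 27873 to 34797 peaks and SE/SE lists from 39115 to 44242, so the shortest SE/SE list was longer than the longest wild-type list. Read depth is unknown, and the PCR took 17, 18 and 19 cycles for wild type and 15, 16 and 16 for SE/SE, without a statement of which library had which number. Genotype, list length and PCR cycles cannot be told apart in these 6 libraries. Nor can fewer cells of a type be told apart from less accessibility in each cell. Markers of the neural retina had a peak no farther than 1 kb from an end of the gene in all 6 libraries for 5 of 6 genes (Six3 lacked it in wild-type library 3 and SE/SE library 2), and ganglion cell markers for 6 of 6. Markers of tissue around the retina were at the same count in both genotypes for pigment epithelium (1 of 5 in every library), lens (1 of 4), endothelium (1 of 4), microglia and blood (1 of 4), glia outside the retina (2 of 4) and muscle (1 of 3), and mesenchyme markers stood at 3 or 4 of 4 (3 in wild-type libraries 1 and 3). Amacrine and horizontal cell markers stood at 4 of 5 in every library, and photoreceptor markers at 1, 1 and 1 of 4 in wild type and 1, 2 and 2 in SE/SE. The regions of marker genes were less even than their gene ends. Regions with a peak in 3 of 3 SE/SE and 0 of 3 wild-type libraries made up 3 of 71 for neural retina markers, 2 of 44 for ganglion cell, 7 of 53 for amacrine and horizontal, 4 of 20 for photoreceptor, 1 of 7 for pigment epithelium and 2 of 5 for lens markers. They were 2 of 17 for endothelial, 3 of 14 for microglia and blood, 6 of 23 for mesenchyme, 2 of 18 for glia outside the retina and 0 of 1 for muscle markers. The share over all regions was 8.23%. Every SE/SE library had more regions than every wild-type library for 17.9% of all genes with a region. Among markers this held for 4 of 4 mesenchyme (Twist1, Prrx1, Pdgfrb and Foxc1) and 4 of 5 amacrine and horizontal genes. It held for 2 of 4 photoreceptor, 2 of 4 microglia and blood and 2 of 4 outside-glia genes. The neural retina and ganglion cell lists had 2 of 6 each. Pigment epithelium had 1 of 5, lens 1 of 4, endothelium 1 of 4 and muscle 0 of 3. The part of these cell types in the results was not tested.

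Fast excitation in the nervous system runs through ionotropic glutamate receptors, ligand-gated channels built from AMPA, NMDA or kainate subunits, while metabotropic glutamate receptors signal through G proteins. GABA-A and glycine receptors are chloride channels, and the GABA-B receptor is a G protein-coupled dimer. In the mature retina photoreceptors and bipolar cells release glutamate, amacrine and horizontal cells release GABA or glycine, and ganglion cells carry receptors for all of these; around the birth of ganglion cells most synapses have not yet formed.

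Promoter sequences show how unlike the starts of these genes are. RefSeq promoters (GRCm38.p6, from 250 bases before to 50 after the annotated start, 300 bases in all) were given for 24 of the 32 genes, with 30 starts. In the following lines CG dinucleotides are in capitals. Gria4 is shown as the start whose region held the highest percentile in every list among the ionotropic glutamate receptor genes. Grin1 and Gabbr2 are shown because they are rich in CG but had a peak in only some libraries. Gabrg1 is shown because it has few CG and a peak in every library. Gabra4 and Gabrb1 are shown because their starts lie 387 bp apart on opposite strands inside 1 merged region. The Gabrb1 start lay under a peak in every library, and that of Gabra4 in wild-type library 2 and the SE/SE libraries.
Gria4, chr9:4796185-4796484, - strand: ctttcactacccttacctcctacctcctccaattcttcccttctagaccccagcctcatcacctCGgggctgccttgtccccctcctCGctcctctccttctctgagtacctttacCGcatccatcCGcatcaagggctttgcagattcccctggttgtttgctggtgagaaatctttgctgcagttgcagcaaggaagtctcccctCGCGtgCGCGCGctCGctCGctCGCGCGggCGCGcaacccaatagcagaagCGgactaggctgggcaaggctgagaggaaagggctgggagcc
Grin1, chr2:25319138-25319437, - strand: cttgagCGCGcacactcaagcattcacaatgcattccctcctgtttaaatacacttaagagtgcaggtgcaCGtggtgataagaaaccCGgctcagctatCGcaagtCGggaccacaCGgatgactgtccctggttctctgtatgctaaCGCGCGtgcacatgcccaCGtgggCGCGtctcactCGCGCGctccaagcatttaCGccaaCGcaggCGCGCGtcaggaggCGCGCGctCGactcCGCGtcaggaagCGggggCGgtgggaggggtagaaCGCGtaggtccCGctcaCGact
Gabbr2, chr4:46991665-46991964, - strand: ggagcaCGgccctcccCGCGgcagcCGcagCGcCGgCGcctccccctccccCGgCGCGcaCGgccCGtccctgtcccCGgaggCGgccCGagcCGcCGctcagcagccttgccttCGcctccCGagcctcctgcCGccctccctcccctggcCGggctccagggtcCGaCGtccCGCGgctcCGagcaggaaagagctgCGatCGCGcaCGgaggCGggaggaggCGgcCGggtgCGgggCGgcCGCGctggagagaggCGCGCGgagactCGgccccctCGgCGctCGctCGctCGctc
Gabrg1, chr5:70842568-70842867, - strand: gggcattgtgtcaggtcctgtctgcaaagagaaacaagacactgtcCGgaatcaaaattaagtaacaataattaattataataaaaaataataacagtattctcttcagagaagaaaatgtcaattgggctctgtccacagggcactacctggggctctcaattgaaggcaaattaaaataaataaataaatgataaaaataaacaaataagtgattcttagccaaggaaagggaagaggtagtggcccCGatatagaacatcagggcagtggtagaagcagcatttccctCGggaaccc
Gabra4, chr5:71658259-71658558, - strand: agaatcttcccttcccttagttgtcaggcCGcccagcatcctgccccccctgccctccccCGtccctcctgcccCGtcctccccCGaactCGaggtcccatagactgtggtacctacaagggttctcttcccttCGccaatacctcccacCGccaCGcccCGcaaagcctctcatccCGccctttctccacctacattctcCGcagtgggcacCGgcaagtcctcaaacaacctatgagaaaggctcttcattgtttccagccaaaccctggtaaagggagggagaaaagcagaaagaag
Gabrb1, chr5:71657671-71657970, + strand: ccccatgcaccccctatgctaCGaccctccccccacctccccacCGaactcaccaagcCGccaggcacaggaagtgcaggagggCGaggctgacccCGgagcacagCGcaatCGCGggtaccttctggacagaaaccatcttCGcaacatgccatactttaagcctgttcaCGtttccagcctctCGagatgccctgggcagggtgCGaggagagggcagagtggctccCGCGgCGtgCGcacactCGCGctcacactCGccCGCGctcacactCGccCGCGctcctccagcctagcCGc

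Grm2 is shown for letters of the site bound by REST, a repressor of neuronal genes in cells that are not neurons. Capitals mark the left part of that site, TTCAGCACC, at bases 9 to 17 and the right part, GGACAG, at bases 25 to 30, both on the printed strand.
Grm2, chr9:106656060-106656359, - strand: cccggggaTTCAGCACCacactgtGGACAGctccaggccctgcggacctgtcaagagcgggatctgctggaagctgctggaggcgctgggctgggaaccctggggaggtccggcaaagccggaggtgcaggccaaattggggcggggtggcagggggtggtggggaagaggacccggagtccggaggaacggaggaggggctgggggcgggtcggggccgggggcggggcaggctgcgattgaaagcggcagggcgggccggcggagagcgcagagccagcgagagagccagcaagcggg

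All 32 genes had a peak at most 1 kb from either end of the gene in both joint lists, which the authors named for a genotype, against 67.0% of all genes in the wild-type and 68.0% in the SE/SE joint list. In the lists of single libraries, 22 of the 32 genes (68.8%) had such a gene-end peak in 6 of 6 libraries, against 55.6% of all genes. A further 9 genes (28.1%, against 5.52% of all genes) had it in some libraries only, and 1 gene, Grin2a, in none (3.12%, against 38.9%). A gene-end peak is not always at the start of a gene. Gria2 and Grik2 are among the 9, though their annotated starts lay under a peak in 6 of 6 libraries. Grin2d and Grik5 are among the 22 by the end opposite to the annotated start. The shares above also depend on which genes of the families are listed. With 20 further subunit genes of the same families added, 29 of 52 (55.8%) had a gene-end peak in 6 of 6 libraries, 13 (25%) in some and 10 (19.2%) in none. The number of member genes with a gene-end peak was 23, 27 and 22 in the wild-type libraries and 27, 30 and 29 in the SE/SE libraries, or 24.0 ± 2.65 against 28.7 ± 1.53 (SD, n = 3 each). The groups met at 27 genes, the value of wild-type library 2 and SE/SE library 1. As a background, 57.2% ± 1.15 of all genes had a gene-end peak in the wild-type lists and 60.1% ± 0.551 in those of SE/SE (SD, n = 3 each). In 3 of 3 SE/SE and 0 of 3 wild-type libraries the count was 0 of 32 member genes, where 0.864% of all genes showed that pattern.

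**Figure D1:**
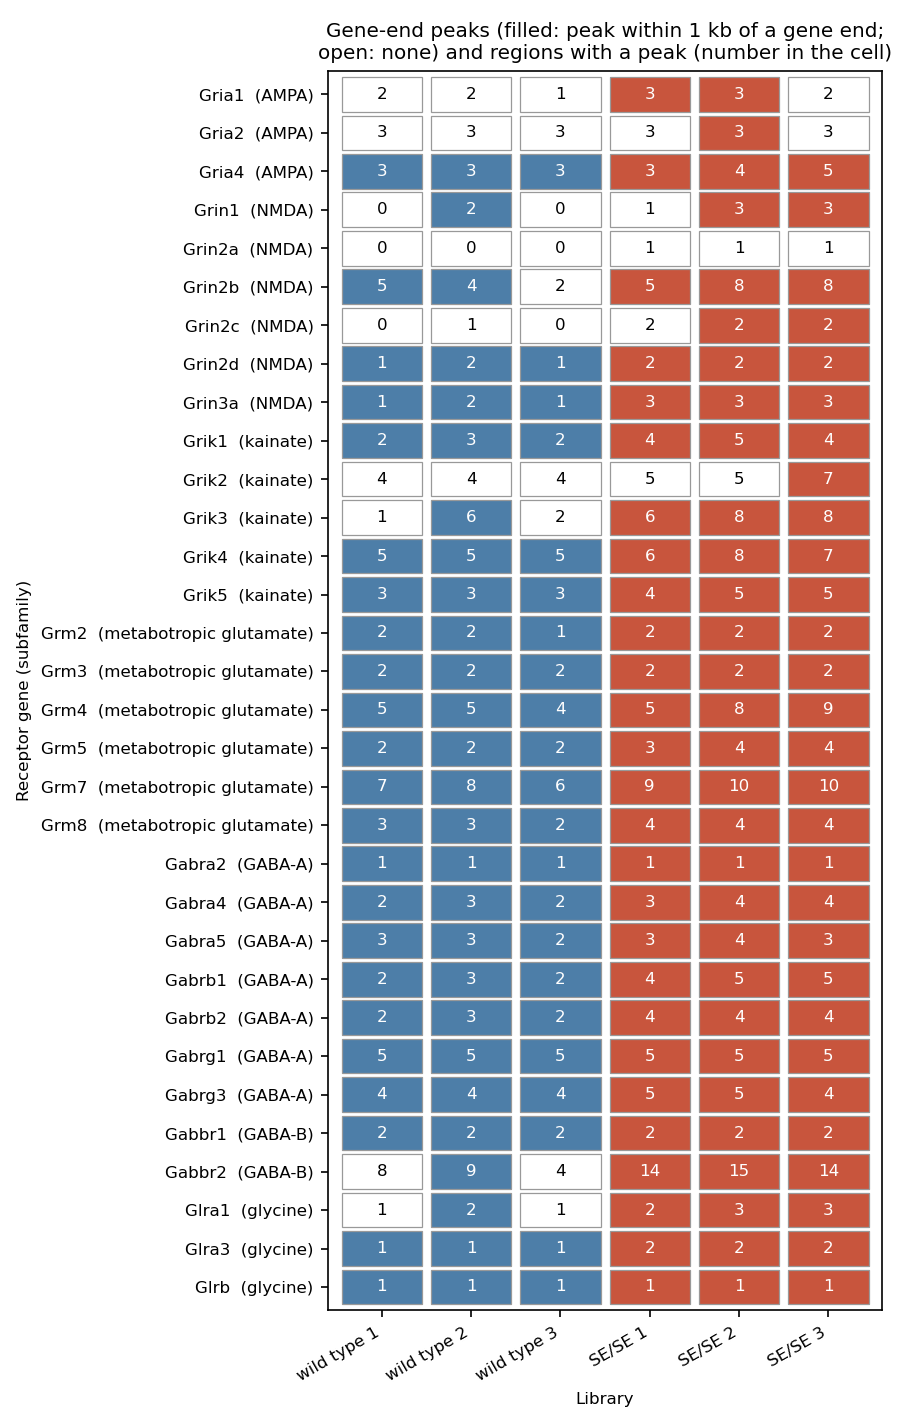
Each row is 1 of the 32 receptor genes and each column 1 of the 6 libraries (blue, wild type; red, SE/SE). A filled cell has a gene-end peak (within 1 kb of either end), and the number is how many of the gene's regions had a peak. The GABA-A and metabotropic glutamate rows are filled throughout, and open cells gather in the AMPA, NMDA and kainate rows. Gria2 and Grik2 have open cells although every library had a peak over their annotated starts.

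Regions with a peak showed a wider gap between the genotypes than gene ends did. Member genes had 81, 96 and 69 regions with a peak in the wild-type libraries and 116, 137 and 135 in the SE/SE libraries, or 82.0 ± 13.5 against 129 ± 11.6 (SD, n = 3 each), with no overlap. The ratio of these means was 1.58, where that of all regions was 1.42. It was 1.24 for member regions within 1 kb of a gene end (1.12 over all regions) and 1.75 for those farther away (1.65 over all regions). Per 1000 regions of the same library, member genes held 2.83, 2.95 and 2.72 in wild type and 3.10, 3.27 and 3.10 in SE/SE, which did not overlap either. The gap depended on list length. With each list shortened to its 27873 strongest peaks by −log10 p, the length of the shortest list, member genes had 72, 73 and 69 regions in wild type and 73, 78 and 80 in SE/SE. These groups met at 73, and the ratio of means was 1.08, beside 1.06 for all regions. The difference in member genes with a gene-end peak was then 1.67 genes per library in place of 4.67.

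Among the 145 regions, 65 (44.8%) had a peak in 6 of 6 libraries, against 52.1% of all regions. Another 45 had peaks in SE/SE libraries only (in 1, 2 or 3 of them), and 0 in wild-type libraries only. Over all 46780 regions these counts were 12973 and 351. In 3 of 3 SE/SE and 0 of 3 wild-type libraries there were 16 member regions (11%), called SE/SE-specific below, where 8.23% of all regions had that pattern. The opposite pattern was found in 0 of 145 member regions and 0.0321% of all regions. Every one of the 145 regions, the 16 included, overlapped a peak of both joint lists. So did nearly all regions: of the 46780, 46776 overlapped a wild-type and 46769 an SE/SE joint peak. By the exact two-sided permutation test, whose smallest p with 3 against 3 is 0.1, 0 of 46780 regions passed after Benjamini-Hochberg adjustment (smallest adjusted p 1), and 0 had an unadjusted p under 0.05.

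**Figure D2:**
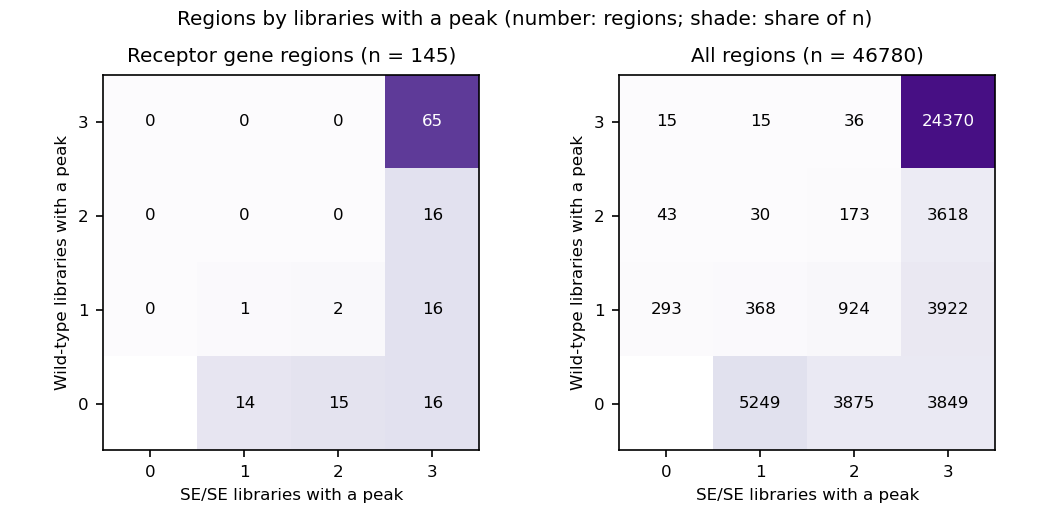
Regions of the receptor genes (left, 145) and all regions (right, 46780) by the number of SE/SE libraries (horizontal axis) and wild-type libraries (vertical axis) with a peak; numbers count regions and shade gives their share of the panel. The corner with 3 and 3 libraries holds 65 receptor regions, the bottom row without a wild-type peak holds 45, and the left column without an SE/SE peak holds 0. In the right panel the same parts hold 24370, 12973 and 351 regions.

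The 16 SE/SE-specific regions were narrow and low-ranked. Their median width was 198 bp, against 590 bp for the 65 regions found in every library. Peaks were ranked by the authors' signal value inside each list, where a percentile of 90 would mean stronger than 90% of that list's peaks. SE/SE-specific member regions had median percentiles of 10.2, 19.8 and 18.7 in the SE/SE libraries, and regions found in every library had 67.5, 71.5 and 71.4 there. With all lists at 27873 peaks, 2 member regions were SE/SE-specific, in Grik3 (chr4:125565744-125566161) and near Grm4 (chr17:27339278-27339629), and 2 were wild-type-specific, in Gabrg1 (chr5:70757917-70758152) and Grm7 (chr6:110653318-110653830). The backgrounds at that length were 1.16% and 0.267% of all regions. Of the 14 genes that held an SE/SE-specific region in the full lists, 0 held one in the equal lists.

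Region counts per gene were also compared. In 14 of 32 member genes (43.8%) every SE/SE library had more regions with a peak than every wild-type library, where 17.9% of the 15705 genes with a region did. The reverse held for 0 of 32 member genes and 0.0446% of genes. Receptor genes are long, with a median of 201 kb against 17.2 kb for all genes. Among genes of 100 kb or more the share with more regions in every SE/SE library was 39.8%, and among the member genes of that length it was 12 of 21 (57.1%). The exact two-sided permutation test over all 15705 genes gave 0 calls after adjustment, with a smallest adjusted p of 0.556, and 0 unadjusted p under 0.05. With lists of equal length the count was 1 of 32, where 1.94% of all genes with a region had that pattern. The gene was Grm4, which is not among the 14, and Gabrg1 had more regions in every wild-type library.

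**Figure D3:**
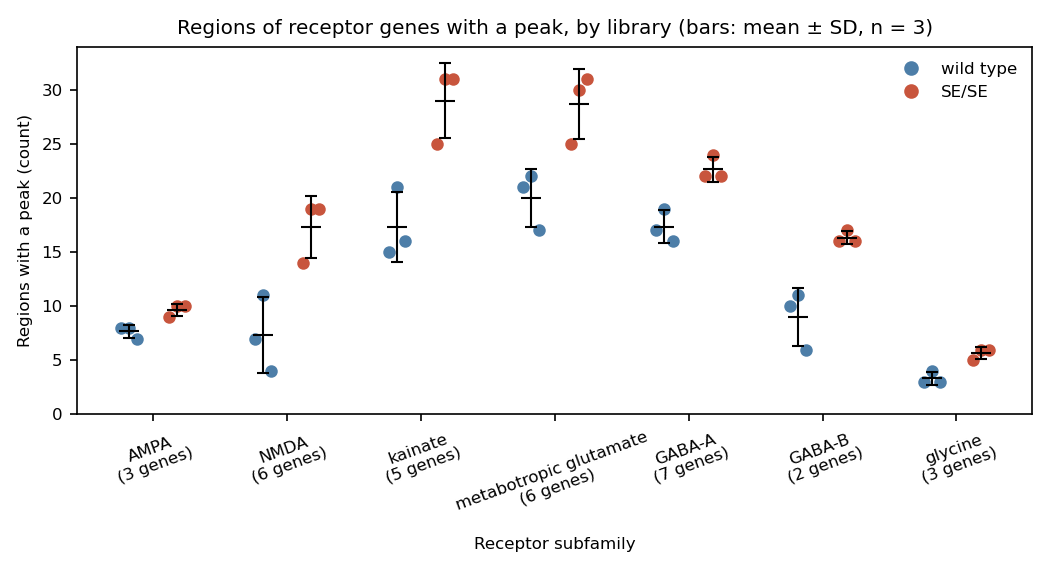
Number of regions with a peak in each library (points) for the 7 receptor subfamilies, with the mean and SD of each genotype (n = 3). Every subfamily has its SE/SE libraries above its wild-type libraries; the ratio of means runs from 1.26 for AMPA to 2.36 for NMDA receptor genes in these full lists, and at equal list length the AMPA difference turns.

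AMPA receptors carry most fast excitatory current, and in the full lists their genes had the smallest ratio of region counts between the genotypes. The 3 genes had 8, 8 and 7 regions with a peak in wild type and 9, 10 and 10 in SE/SE, a ratio of means of 1.26, beside 1.42 for all regions. With lists of equal length the counts were 8, 7 and 7 in wild type and 6, 7 and 7 in SE/SE, so the direction turned and the groups overlapped. Of their 11 regions, 7 (63.6%) were found in every library and 0 were SE/SE-specific. Gria4, whose promoter is printed above, had the highest-ranked start in the subfamily. Its promoter region, chr9:4795255-4796589, stood at percentiles 93.6, 94.2 and 91.5 in the wild-type lists and 95.0, 95.3 and 95.5 in the SE/SE lists. Gria4 had 3, 3 and 3 regions in wild type and 3, 4 and 5 in SE/SE, so the groups met at 3. Gria2 encodes the subunit that makes the channel impermeable to calcium. It had 3 regions in all 6 libraries, and the region over its annotated start (chr3:80802529-80803240) was at percentiles 74.8, 79.7 and 67.8 in wild type and 78.8, 83.3 and 82.7 in SE/SE. It was counted as a gene-end peak only in SE/SE library 2, since the annotated start lies more than 1 kb inside the end of the gene and only that library's peak reached within 1 kb of it. Gria1 had a gene-end peak in SE/SE libraries 1 and 2 only, at percentiles 9.34 and 17.9. Its regions with a peak numbered 2, 2 and 1 in wild type and 3, 3 and 2 in SE/SE, and the groups overlapped at 2.

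NMDA receptors are calcium-permeable channels that open when glutamate and a co-agonist bind while the membrane is depolarised. Their 6 genes stood at the other end of the subfamilies: 4 of 20 regions (20%) were found in every library, 4 (20%) were SE/SE-specific, and the counts per library were 7, 11 and 4 in wild type against 14, 19 and 19 in SE/SE. Grin1 encodes the subunit that every NMDA receptor contains. It had 0, 2 and 0 regions with a peak in wild type and 1, 3 and 3 in SE/SE. Its gene-end peak, chr2:25318927-25319144, was found in wild-type library 2 at percentile 12.2 and in SE/SE libraries 2 and 3 at percentiles 19.8 and 26.4. The start of this gene was thus not split by genotype, since wild-type library 2 had the peak and SE/SE library 1 did not. Grin2a and Grin2b encode glutamate-binding subunits that set the kinetics of the channel. Grin2a was the only member without a gene-end peak in a single library. It had 1 region, chr16:9993816-9993978, inside the gene, 2105 bp from its end, with no wild-type peak and percentiles of 18.5, 20.7 and 23.8 in the SE/SE lists. Both joint lists had a peak there, at percentiles 71.9 (wild type) and 78.7 (SE/SE). Grin2b, the NMDA gene with the most regions (9), had 5, 4 and 2 with a peak in wild type and 5, 8 and 8 in SE/SE, so the groups met at 5. The region over its gene end (chr6:136173264-136173813) had a peak in every library but wild-type library 3. A neighbouring region (chr6:136172233-136172616) had a peak in every library, at percentiles 4.36, 17.2 and 7.61 in wild type and 43.9, 50 and 46.7 in SE/SE, and that of wild-type library 3 did not come within 1 kb of the end. The SE/SE-specific region of Grin2b (chr6:135994769-135994967) was at percentiles 18.5, 14.3 and 30.3.

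Grin2c, which encodes a subunit best known from the cerebellum, had 0, 1 and 0 regions in wild type and 2, 2 and 2 in SE/SE. Its gene-end peaks, in SE/SE libraries 2 and 3, lay near the end opposite to the annotated start, and no library had a peak within 1 kb of the start itself. The region there (chr11:115250062-115250356) had a peak in all 3 SE/SE libraries, at percentiles 10.2, 30 and 29.0, but that of SE/SE library 1 did not come within 1 kb of the end. Grin3a encodes a glycine-binding subunit that lowers calcium entry. It had a gene-end peak in 6 of 6 libraries, with a percentile range from 52.3 to 83.4, and 1, 2 and 1 regions in wild type against 3, 3 and 3 in SE/SE. Its SE/SE-specific region (chr4:49806841-49807121) was at percentiles 21.6, 23.5 and 46.1. Grin2d, another modulatory subunit gene, had a gene-end peak in 6 of 6 libraries, at the end opposite to its annotated start. A peak lay within 1 kb of that start in 6 of 6 libraries as well. Grin2d had 1, 2 and 1 regions against 2, 2 and 2. Every NMDA gene had at least as many regions with a peak in each SE/SE library as in wild-type libraries 1 and 3. With lists of equal length, Grin2a had 0 regions in every library, and Grin2c and Grin3a had the same count in all libraries but SE/SE library 3.

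Kainate receptors act on both sides of the synapse, and their 5 genes had 15, 21 and 16 regions in wild type and 25, 31 and 31 in SE/SE. Of their 34 regions 13 (38.2%) were found in every library and 3 were SE/SE-specific, 1 each at Grik1, Grik2 and Grik5. Grik1 had 2, 3 and 2 regions in wild type and 4, 5 and 4 in SE/SE, Grik2 4, 4 and 4 against 5, 5 and 7, and Grik5 3, 3 and 3 against 4, 5 and 5, with no overlap for any of them in the full lists. With lists of equal length the kainate genes had 15, 14 and 16 regions against 16, 17 and 18, which met at 16. Grik2 then had 4 and Grik5 3 regions in every library, and Grik1 2, 1 and 2 against 2, 2 and 2. The SE/SE-specific region of Grik1 (chr16:88372132-88372299) lay outside the gene, 81.4 kb away by its midpoint, at percentiles 5.98, 16.1 and 12.5. That of Grik2 (chr10:49256694-49257010) lay 110 bp from a region that every library had (chr10:49256231-49256584, percentiles 62.5, 67.7 and 60.9 in wild type and 69.6, 72.4 and 74.5 in SE/SE). Here the joint lists had 1 peak over both. Grik5 had its SE/SE-specific region (chr7:25008763-25008925) 924 bp beyond an end of the gene, at percentiles 10.2, 26.4 and 15.9. That end, opposite to the annotated start, also gave Grik5 its gene-end peak in 6 of 6 libraries. A peak lay within 1 kb of the start of Grik5 in 6 of 6 libraries too.

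Grik2 had a gene-end peak by count in SE/SE library 3 only, for the same reason as Gria2: the region over its annotated start (chr10:49788229-49789178) had a peak in every library, at percentiles 84.7, 83.7 and 78.8 in wild type and 87.4, 88.1 and 89.3 in SE/SE. Grik3 differed from it. Its gene-end peak was found in wild-type library 2 and all 3 SE/SE libraries, and its region counts were 1, 6 and 2 in wild type and 6, 8 and 8 in SE/SE. Wild-type library 2 equalled SE/SE library 1, and the other wild-type libraries were at or under 2. Grik4, which encodes a high-affinity subunit, had the most regions of the subfamily (9). Its counts were 5, 5 and 5 in wild type and 6, 8 and 7 in SE/SE, without overlap, though none of its regions was SE/SE-specific: the excess came from regions found in 1 SE/SE library, or in 3 SE/SE and 2 wild-type libraries. At equal list length the Grik4 counts were 5, 3 and 5 against 4, 4 and 5, which overlap.

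Metabotropic glutamate receptor genes had a gene-end peak in every library for 6 of 6 genes, and 17 of their 32 regions (53.1%) were found in every library. Region counts were 21, 22 and 17 in wild type and 25, 30 and 31 in SE/SE, a ratio of means of 1.43, close to the 1.42 of all regions. Grm2 and Grm3 encode receptors that inhibit adenylate cyclase. Grm2 had 2, 2 and 1 regions in wild type and 2, 2 and 2 in SE/SE (at equal list length 2, 2 and 1 against 1, 1 and 2), and Grm3 2 regions in every library. The Grm2 start region (chr9:106656029-106656467), over the sequence printed above, was at percentiles 31.6, 44.7 and 29.7 in wild type and 50.8, 54.5 and 53.5 in SE/SE. The start itself lay under a peak in the SE/SE libraries only, and the wild-type peaks came within 1 kb of it. This difference was not tested. Grm5, whose receptor activates phospholipase C, had 2, 2 and 2 regions against 3, 4 and 4. Its SE/SE-specific region was chr7:87763951-87764086, at percentiles 6.49, 19.1 and 20.5. Grm4, Grm7 and Grm8 belong to the group that acts as presynaptic autoreceptors. Grm7, at 922 kb the longest member, and Grm4 had 10 regions each. Grm7 had 7, 8 and 6 with a peak in wild type and 9, 10 and 10 in SE/SE, without overlap, and its SE/SE-specific region (chr6:110649351-110649695, 4002 bp inside the start-side end of the gene) was at percentiles 2.60, 13.7 and 16.9. With lists of equal length Grm7 had 7, 7 and 6 regions in wild type and 6, 6 and 6 in SE/SE, so its direction turned. Grm4 had 5, 5 and 4 against 5, 8 and 9, with overlap at 5. Grm8 had 3, 3 and 2 against 4, 4 and 4, and its SE/SE-specific region (chr6:27810174-27810342) was at percentiles 3.29, 20.5 and 12.9.

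GABA-A receptor genes were the most uniform across libraries. All 7 had a gene-end peak in 6 of 6 libraries, 16 of their 24 regions (66.7%) were found in every library, and their region counts were 17, 19 and 16 in wild type and 22, 24 and 22 in SE/SE, a ratio of means of 1.31. Gabra2, an alpha subunit gene, had a single region, at its gene end, with a peak in every library. Gabra4 and Gabrb1, a head-to-head pair whose start-side ends overlap, shared 4 regions, so their values are not independent. Of these, 1 lay inside Gabra4, and the others lay inside Gabrb1 with the end of Gabra4 as the nearest gene end. The region over both printed starts (chr5:71657485-71658474) was at percentiles 64.0, 71.2 and 62.0 in wild type and 77.7, 84.1 and 82.5 in SE/SE. Peaks of wild-type libraries 1 and 3 covered the Gabrb1 start and not that of Gabra4. Gabra4 had 2, 3 and 2 regions in wild type and 3, 4 and 4 in SE/SE, which met at 3, and Gabrb1 2, 3 and 2 against 4, 5 and 5, which did not overlap. At equal list length both genes had 2 regions in every library. The additional SE/SE-specific region of Gabrb1 (chr5:71987026-71987386) was at percentiles 15.5, 42.1 and 37.7. Gabrb2 encodes the beta subunit of the most common adult GABA-A receptor. It had 2, 3 and 2 regions against 4, 4 and 4, without overlap. At equal list length Gabrb2 had 2 regions in every library but SE/SE library 3, which had 3. Its SE/SE-specific region (chr11:42420642-42420852), at percentiles 5.94, 15.6 and 16.5, lay 102 bp from a region that every library had. Gabra5 had 3, 3 and 2 regions against 3, 4 and 3. Gabrg1 and Gabrg3 encode gamma subunits. Gabrg1 had 5 regions with a peak in 6 of 6 libraries each, the only member with more than 3 regions of which none varied. At equal list length it had 5, 5 and 5 against 4, 4 and 4. Gabrg3 had 4, 4 and 4 against 5, 5 and 4.

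The GABA-B receptor is a dimer in which the product of Gabbr1 binds GABA and that of Gabbr2 couples to the G protein. Gabbr1 had 2 regions with a peak in every library. Gabbr2 had 15 regions, the most of any member, all inside its 329 kb, and they numbered 8, 9 and 4 in wild type and 14, 15 and 14 in SE/SE, or 7 ± 2.65 against 14.3 ± 0.577 (SD, n = 3 each). With lists of equal length the counts were 7, 5 and 4 against 6, 8 and 7, which overlap. In the full lists the groups did not overlap, and the exact two-sided permutation p was 0.1, the smallest possible, with an adjusted p of 0.556 over all genes. Only 3 of the 15 regions were found in every library and 3 were SE/SE-specific. The region over the start printed above (chr4:46991341-46992080) had a peak in wild-type library 2, at percentile 23.6, and in the SE/SE libraries at percentiles 30.8, 58.7 and 50.6. Of the SE/SE-specific regions, chr4:46689495-46689690 was at percentiles 16.4, 24.4 and 31.0, chr4:46690828-46690977 at 1.46, 12.8 and 15.4, and chr4:46664244-46664471 at 9.05, 16.9 and 14.0; the last lay 157 bp from a region that every library had. At a region that every library had (chr4:46731626-46732088), 259.9 kb downstream of the start, the percentiles were 54.4, 58.8 and 43.1 in wild type and 64.0, 65.1 and 67.2 in SE/SE.

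**Figure D4:**
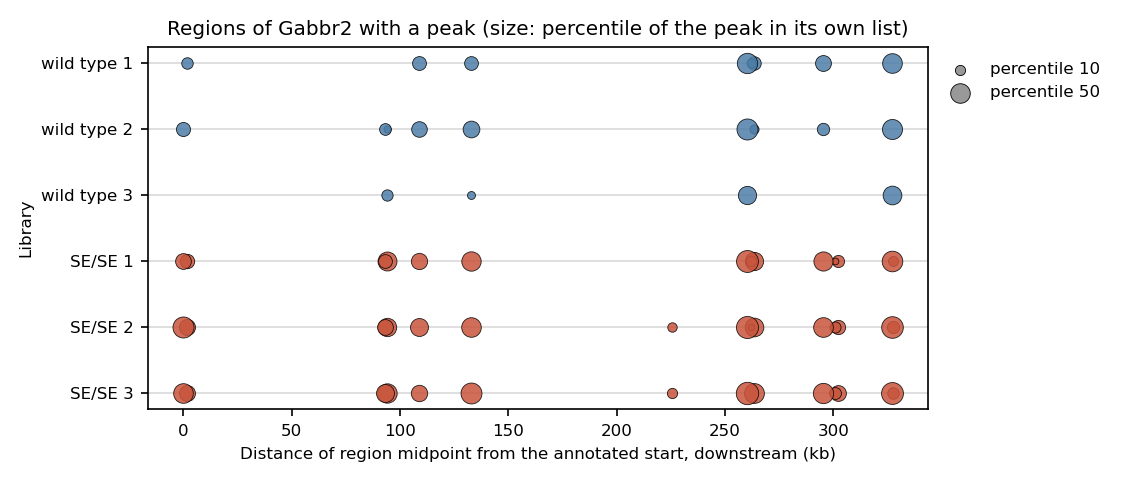
Regions of Gabbr2 with a peak in each of the 6 libraries (rows; blue, wild type; red, SE/SE), placed by the distance of the region's midpoint downstream of the annotated start in kb; the point area grows with the peak's percentile in its own list. Wild-type rows hold 8, 9 and 4 points and SE/SE rows 14, 15 and 14, where neighbouring points overlap; the SE/SE rows hold a point at most places where a wild-type row has none.

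Glycine receptors are built from ligand-binding alpha subunits and a beta subunit that anchors them at the synapse. Their 3 genes had 3, 4 and 3 regions in wild type and 5, 6 and 6 in SE/SE. Glrb, the beta subunit gene, had 1 region, over its start, with a peak in every library, at percentiles 87.6, 86.0 and 80.8 in wild type and 89.5, 91.3 and 90.4 in SE/SE. Glra1 had a gene-end peak (chr11:55607853-55608035) in wild-type library 2, at percentile 18.7, and in all SE/SE libraries, at 34.2, 26.2 and 21.4. Its regions numbered 1, 2 and 1 against 2, 3 and 3, which met at 2. Glra3 had 1, 1 and 1 against 2, 2 and 2, the second being its SE/SE-specific region (chr8:56046180-56046335) at percentiles 17.1, 9.34 and 7.44.

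Wild-type library 2 carried most of the exceptions. The gene-end peaks of Grin1, Grik3, Gabbr2 and Glra1 were found in it and in no other wild-type library. Without it, SE/SE-specific member regions numbered 31 and not 16, or 21.4% of member regions against 15.1% of all regions. Without SE/SE library 1, the SE/SE library with the fewest peaks, they numbered 29 of 145. The share of all regions with that pattern was then 14.6%, up from 8.23% with every library kept. Among the 16, 3 (18.8%) lay within 500 bp of a region that all 6 libraries had, at Grik2, Gabrb2 and Gabbr2, against 9.15% of the 3849 SE/SE-specific regions in all.

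CG content of the starts was set beside their peaks. The ratio of observed to expected CG in the 300 bases was used, where 1 means as many CG as the base composition alone would give. Over all 21263 starts, a peak within 1 kb in 6 of 6 libraries was found at 8.25% of starts with a ratio under 0.3, 50.7% from 0.3 to 0.6, 90.0% from 0.6 to 0.9 and 96.4% at 0.9 or more. Receptor starts had it in 2 of 3, 12 of 12, 8 of 9 and 3 of 6 cases in the same order. The 6 starts at 0.9 or more were those of Grin1 (1.20), Grik4 (1.16), Grik3 (1.01), Grm8 (0.99), Gabbr2 (0.96) and Glrb (0.96). Grin1 had a peak in 3 libraries and Grik3 and Gabbr2 in 4, so 3 of 6 (50%) varied between libraries, where 2.03% of the 3640 starts of that class did. At the other end, Gabrg1 with 3 CG in 300 bases (ratio 0.28) had a peak within 1 kb in every library, on each side of its start, at percentiles from 32.4 to 67.3. Grin2c (0.63) and 1 of the 3 starts of Grm8 (0.14) had no peak within 1 kb in any library. These are counts over few starts, and starts of 1 gene share a neighbourhood.

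**Figure D5:**
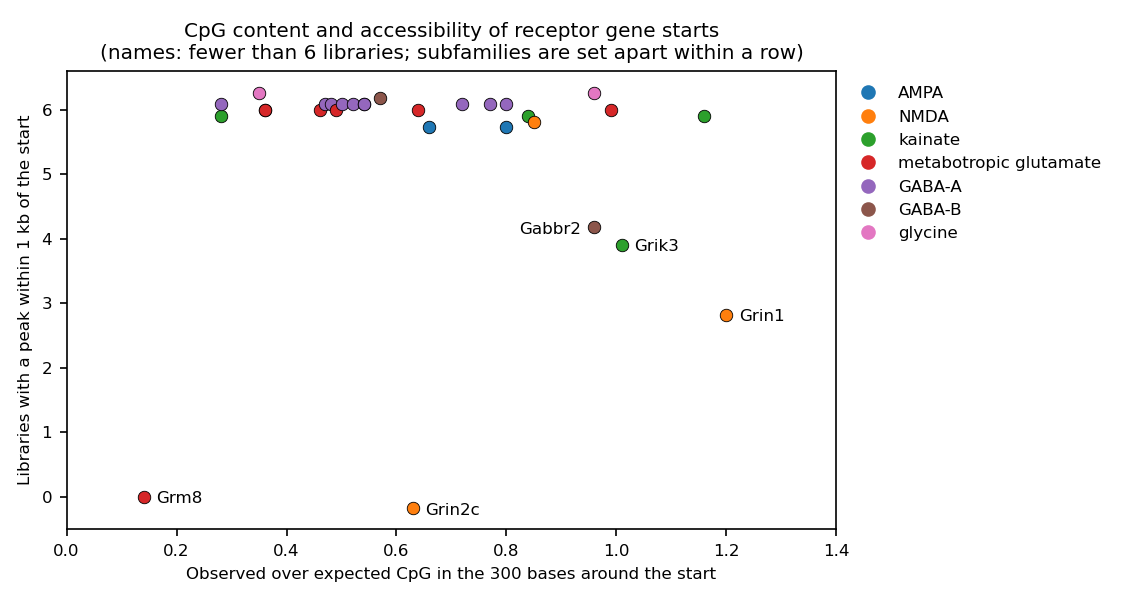
Observed over expected CG in the 300 bases around each of 30 annotated starts of 24 receptor genes (horizontal axis) against the number of libraries, out of 6, with a peak within 1 kb (vertical axis); colour gives the subfamily. Starts below 6 libraries are named: Grin1, Grik3 and Gabbr2 lie at the right with 3 or 4 libraries, and Grin2c and a start of Grm8 lie at 0.

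Short sequence motifs were counted in the same 300 bases, on both strands. The letters GGGCGG (the GC box) were in 18 of 30 receptor starts, against 46.2% of all starts, and CANNTG (the E-box, the core read by basic helix-loop-helix factors such as the product of Atoh7) in 14 of 30, against 69.0%. CAGCTG and CAGATG, both forms of CANNTG, were found in 1 start each (Glra3 and Gabra5), against 15.6% and 14.6% of all starts. GCGCANGC, part of the NRF1 site, was in 7 of 30 (13.2% of all), TATAAA in 1 (Gabrb2, 12.6% of all), TAATTA in 1 (Gabrg1, 4.53% of all), TAATCC in 1 (Gabra2, 6.42% of all) and TGACGTCA in 0 (2.23% of all). The left part of the REST site was in 1 start, Grm2, against 0.414% of all starts, and the right part, GGACAG, in 13 of 30, against 22.3%. A match says only that these letters are present.

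The joint lists held many more peaks at these genes than the lists of single libraries. The SE/SE joint list had 480 peaks at member genes and the wild-type joint list 394. Of the 480, 124 (25.8%) overlapped no peak of the wild-type joint list, against 22.0% of all peaks of that list. Of the 394, 23 (5.84%) overlapped no SE/SE joint peak, against 6.28%. Most joint peaks here overlapped no peak of any single library: 72.9% for SE/SE and 67.0% for wild type, against 66.0% and 60.5% over all peaks of those lists. Among the SE/SE joint peaks without a wild-type counterpart, the strongest was inside Grik1 (chr16:87954846-87955117), at percentile 43.2 of its list. The strongest wild-type peak without a counterpart was inside Glrb (chr3:80866783-80867102), at percentile 42.4.

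Other genes of the same machinery gave a frame for these counts. Of the 20 further subunit genes, 7 had a gene-end peak in 6 of 6 libraries, 4 in some and 9 in none. Grm6, which encodes the glutamate receptor of ON bipolar cells, and Glra2, a glycine receptor alpha subunit gene, had it in 3 of 3 SE/SE and 0 of 3 wild-type libraries. Gria3, an AMPA receptor subunit gene, had it in wild-type library 2 and all SE/SE libraries, the same libraries as Grik3, Gabbr2 and Glra1. Of 30 genes for scaffold and auxiliary proteins of these receptors, 23 had it in 6 of 6, 2 (Grip2 and Cacng8) in some and 5 in none, the last being Cnih3, Dlg4, Gphn, Shank3 and Nlgn3. Of 16 nicotinic acetylcholine receptor genes, 8 had it in 6 of 6, 7 in none, and Chrne in the SE/SE libraries only. SE/SE-specific regions made up 5 of 48 regions (10.4%) of the further subunit genes, 16 of 156 (10.3%) of the scaffold genes and 2 of 33 (6.06%) of the nicotinic genes, beside 11% for the member genes and 8.23% for all regions. With these 6 libraries no test of the differences between such shares was made.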

How the data were processed

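ATAC-seq peak lists of 3 wild-type and 3 SE/SE retinas and 2 joint lists were used. Per the submitters' processing notes, the build was GRCm38 (mm10) and the tools were Genrich 0.5, bedtools 2.27.0, BWA, cutadapt and limma, with no role or order. Trimming, Tn5 shift, duplicate removal and how the joint lists were made are not given in the sources used here. The deposited columns used are a signal value, whose scaling between libraries is not given, and a −log10 p. The authors' deposited signal value was used to rank peaks within a list. The deposited −log10 p was used to shorten lists, with ties broken by the signal value. In 1 alternative the signal value also served as a cutoff, with a minimum of 100 in every list. That cutoff may not mean the same in each library, since the scaling is not given. Read depth is unknown, so no counting interval could be given.

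Peaks on chromosomes 1 to 19, X and Y were merged where they shared 1 bp into regions. A gene-end peak has a base within 1 kb of either end of a RefSeq gene. A region belongs to every gene that holds its midpoint, and also to the gene whose end is nearest to the midpoint within 100 kb. A region inside 1 gene can thus belong to another gene as well. Gene strand was known for 24 of the 32 genes, from the promoter table; Gria1, Grin2a, Grin2b, Grin3a, Grik1, Grm4, Grm5 and Glra1 had no promoter entry. The test of each call was an exact permutation test, two-sided, of the 20 assignments of libraries, with Benjamini-Hochberg adjustment over all regions or genes. The members, lists and motifs were chosen with earlier results of these data known, and values per library are given for genes with an SE/SE-specific region, with a gene-end peak in some libraries, or with the most regions of a subfamily; the others were added for a full account. Alternatives covered list length, signal minimum, distances, overlap, annotated starts, the replicate block and each library left out. Python 3.11.15, numpy 2.4.6, pandas 2.3.3 and scipy 1.17.1 were used, and the scripts were tested on simulated data.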

Additional observations from a re-analysis of the deposited data

How the results depend on the processing

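Both list length and the choice of libraries moved the results. With every list at 27873 peaks, the difference in member genes with a gene-end peak was 1.67 per library in place of 4.67, SE/SE-specific member regions were 2 in place of 16, wild-type-specific ones 2 in place of 0, and member genes with more regions in every SE/SE library 1 in place of 14. The backgrounds at that length were 1.16% and 0.267% of all regions and 1.94% of all genes with a region. With peaks of signal value 100 or more, member genes with a gene-end peak averaged 19.3 in wild type and 25.7 in SE/SE. SE/SE-specific member regions were 14 of 100 (14.0%), against 9.28% of all regions, and wild-type-specific ones 0, against 0.0279%. The ratio of mean member region counts was 1.65 in place of 1.58. At this signal minimum the count of member genes with more regions was 6, against 15.8% of all genes with a region. Using annotated starts alone, the gene-end difference was 1.67. Leaving out each library in turn, that difference ran from 3.67 to 6.17, the SE/SE-specific regions from 16 to 31 (31 without wild-type library 2, 29 without SE/SE library 1), the wild-type-specific regions stayed at 0, and the genes with more regions ran from 14 to 21. Over all regions the SE/SE-specific share then ran from 8.46% to 15.1%. Over all genes with a region the share with more regions ran from 18.2% to 28.8%. With both wild-type library 2 and SE/SE library 1 left out, a setting chosen after seeing the data, the values were 7, 45, 0 and 22. The backgrounds there were 22.8% and 0.110% of all regions and 37.8% of all genes with a region. In the replicate block each SE/SE library was set against the wild-type library of the same number. By that rule 19 member genes had more regions in SE/SE, against 22.0% of all genes with a region. Same-numbered libraries deviated together with correlations of 0.018, 0.011 and 0.043. Without values for differently numbered libraries, these cannot show whether the numbers pair the libraries. At equal list length 3 differences in regions with a peak (SE/SE minus wild type) reversed: the AMPA genes from 2.00 to -0.667, Grm7 from 2.67 to -0.667 and Grm2 from 0.333 to -0.333. Gabrg1 and Gria2, at 0 in the full lists, went to -1 and -0.667, and all members from 47.3 to 5.67. Of 352 such differences for single genes under the alternatives, 306 stayed within the spread between replicates and 44 moved in size. Of 403 values for subfamilies and the member region total, 330 stayed (counts within 1.5 times) and 72 moved. The alternative of an overlap of 50% of the shorter could change no value, since every peak lies wholly inside its merged region. Its values are counted among those that stayed, so they say nothing about stability. The causes were not tested. With depth unknown, a missing peak does not show closed chromatin.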
